A study of Mus musculus with 2 samples.

Results

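The phagocyte NADPH oxidase is described here through 4 of its subunit genes, Cybb, Cyba, Ncf1 and Ncf4, chosen by symbol among the 22886 genes of the deposited tables. Each of the 4 was listed on 1 line in both libraries, and no other listed locus overlapped theirs. The libraries came from FACS-sorted cells that the labels call aerobic, taken from Lewis lung carcinoma (LLC), a transplantable mouse lung tumor, grown under the skin of wild type C57BL/6 mice. One library was from mice injected with vehicle and one from mice injected with clodronate, a drug that kills macrophages when they take it up in liposomes, and the comparison asks how the sorted cells differed after that injection. The age of the mice, how many were pooled, the dose and the sorting gate were not given in the sources used here. The labelled culture conditions are those of EML, a line of blood progenitors, and conflict with the tissue given, so the libraries are called vehicle and clodronate after their descriptions.

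This oxidase transfers electrons from NADPH across a membrane to oxygen and makes superoxide, the starting point of the oxidative burst with which neutrophils and macrophages attack ingested microbes. Its core in the membrane is flavocytochrome b558, built of the catalytic subunit gp91phox (Cybb, also called Nox2) and p22phox (Cyba). In resting cells p47phox (Ncf1) and p40phox (Ncf4) wait in the cytosol, and after stimulation they move to the membrane and join the GTPase Rac. Inherited loss of these subunits causes chronic granulomatous disease.

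The labelled identity was compared with marker genes, on the scale of RPKM, reads scaled to transcript length and to the size of the library. All 15 macrophage markers were detected in both libraries, with a summed level of 22035 RPKM in vehicle and 21742 RPKM in clodronate. Lyz2 alone gave 10534 and 11189 RPKM of these sums, so they say little about the other markers. Single markers went in both directions, such as C1qc with 3984 and 2043 RPKM and Mrc1 with 174 and 289 RPKM. Of the 15 markers 12 were higher and 3 lower in clodronate, and 1, Cd163, differed by 2-fold or more. The 8 epithelial markers summed to 16.9 and 11.0 RPKM. Of these 4 averaged 1 RPKM or more, with Cdh1 highest at 6.14 and 6.44 RPKM, about 354 and 303 reads, while Epcam, Krt19 and Cldn4 were listed at 0 in both libraries. Of the 12 neutrophil markers 11 were found, summing to 51.8 and 52.8 RPKM. The highest were Csf3r, with 26.4 and 19.3 RPKM, and S100a8, with 12.7 and 23.1 RPKM, while the granule gene Mmp9 had 5.66 and 6.87 RPKM. S100a9, Elane, Ngp, Camp, Ltf and Retnlg were listed at 0 in both. The libraries labelled tumor cells thus held macrophage markers at high levels and epithelial and neutrophil markers at much lower ones, some of them detected, and markers of LLC cells as such were not examined. In such bulk samples, fewer cells of a type and less RNA per cell cannot be told apart.

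The start regions are shown for the members whose RefSeq promoters were at hand, Cybb, Cyba and Ncf1. Each runs from 250 bases before the RefSeq start to 30 bases after it on GRCm38.p6, and all 3 genes lie on the minus strand. The region of Cybb is chrX:9469295-9469574, that of Cyba chr8:122432911-122433190 and that of Ncf1 chr5:134229596-134229875. Capitals mark matches to a searched motif on either strand.
Cybb: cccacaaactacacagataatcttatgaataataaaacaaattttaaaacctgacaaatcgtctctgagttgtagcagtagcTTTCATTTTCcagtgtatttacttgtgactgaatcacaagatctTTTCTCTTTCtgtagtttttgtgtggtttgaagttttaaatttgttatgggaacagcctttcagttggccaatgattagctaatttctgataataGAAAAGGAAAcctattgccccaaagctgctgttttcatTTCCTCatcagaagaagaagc
Cyba: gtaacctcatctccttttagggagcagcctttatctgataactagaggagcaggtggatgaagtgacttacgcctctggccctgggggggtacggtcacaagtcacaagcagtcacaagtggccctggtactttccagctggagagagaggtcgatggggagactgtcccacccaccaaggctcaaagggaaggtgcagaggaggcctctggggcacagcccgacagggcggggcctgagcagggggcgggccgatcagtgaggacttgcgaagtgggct
Ncf1: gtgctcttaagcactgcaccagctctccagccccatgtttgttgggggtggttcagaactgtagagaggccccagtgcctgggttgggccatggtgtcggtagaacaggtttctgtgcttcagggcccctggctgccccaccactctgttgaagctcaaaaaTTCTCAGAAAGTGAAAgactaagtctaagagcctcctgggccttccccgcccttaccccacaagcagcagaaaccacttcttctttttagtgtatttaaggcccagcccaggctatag

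The motifs searched were the core GAGGAA of PU.1, an Ets factor of myeloid cells, the pattern of interferon-stimulated response elements, GAAA and GAAA with any 2 bases between, the pattern of gamma-activated sites, TTC and GAA with any 3 bases between, and the core ACGTG of hypoxia response elements. The Cybb region held 1 PU.1 core on the opposite strand, from position 10 to 15 after the start, and 3 matches to the interferon pattern, the nearest from -29 to -20. The Ncf1 region held 1 match to the interferon pattern, from -82 to -73, and 1 to the gamma-activated site, from -88 to -80, which overlap. The Cyba region, with 60.0% G and C against 34.3% in Cybb and 53.9% in Ncf1, held no match to any of the 4 patterns. Among 32851 promoter regions of the same length, 26.0% held the PU.1 core, 3.28% the interferon pattern, 7.83% the gamma-activated site and 18.5% the hypoxia core. These shares are over regions of any base composition and were not matched to that of Cybb, Cyba or Ncf1. A match is a string of letters and not a measured binding site. A link between these matches and the levels in the 2 libraries was not tested.

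The transcripts of all 4 subunits were abundant in both libraries. In vehicle their levels ran from 182 RPKM for Cybb to 394 RPKM for Cyba, and in clodronate from 121 RPKM for Cybb to 361 RPKM for Cyba. The order was the same in both libraries, with Cyba highest, then Ncf1, Ncf4 and Cybb. Because each condition had 1 library, there is no spread over samples against which neighbours in this order, or the libraries, could be tested, and no p-value is given.

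**Figure D1:**
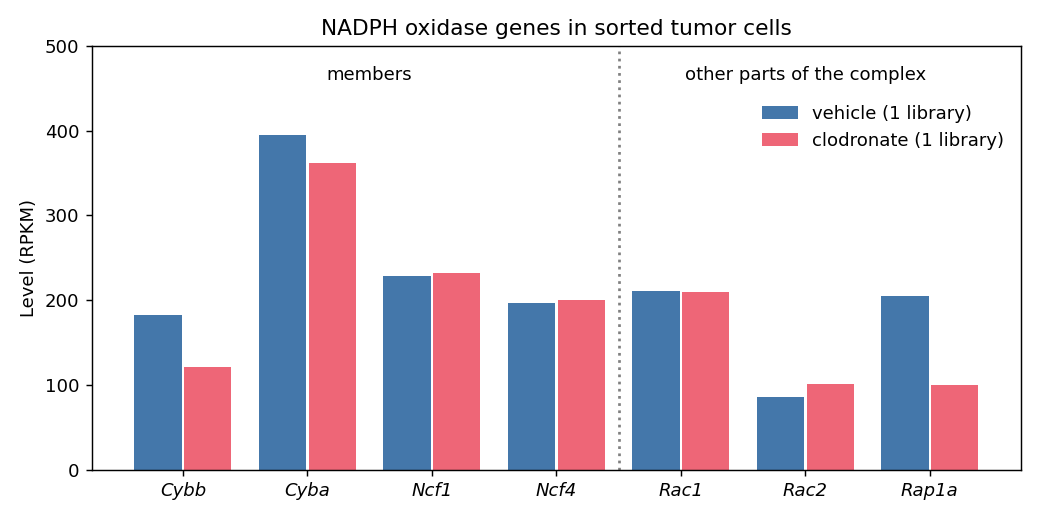
Level in RPKM (y axis, from 0) of the 4 members and 3 partners (x axis) in the vehicle library (blue bars) and the clodronate library (red bars), 1 library each and hence no error bars. Cybb stands at 182 and 121 RPKM and Rap1a at 205 and 99.5 RPKM, while the bars of Ncf1, Ncf4 and Rac1 are nearly level.

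Cybb, the electron-carrying catalytic subunit, had 182 RPKM in vehicle and 121 RPKM in clodronate. The clodronate level was 0.663 times the vehicle level, a log2 ratio of -0.59 on the scale of log2(RPKM + 1), which is used for all log2 ratios here. The files give this gene at chromosome X from 9012378 to 9046450 in the build mm9. Among 22886 genes it ranked 474th by level in vehicle and 681st in clodronate.

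Cyba, whose product p22phox stabilises gp91phox and docks p47phox, had 394 RPKM in vehicle and 361 RPKM in clodronate, with a log2 ratio of -0.13. It lies on chromosome 8 from 124948671 to 124956840 (mm9) and ranked 237th and 253rd. Both subunits of the membrane core were thus lower in the clodronate library, Cybb by more. The value of Cyba was not unusual, as 40.1% of the genes averaging 1 RPKM or more had a log2 ratio at or below it.

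Ncf1, the organiser that bridges the cytosolic subunits to p22phox, had 229 RPKM in vehicle and 233 RPKM in clodronate, with a log2 ratio of 0.03 and the position chromosome 5 from 134696130 to 134705495 (mm9). Ncf4, whose product p40phox binds a phosphoinositide of the phagosome membrane, had 196 RPKM in vehicle and 201 RPKM in clodronate, with a log2 ratio of 0.03 and the position chromosome 15 from 78075241 to 78093010 (mm9). The cytosolic members were therefore almost level between the libraries. The ratio of Ncf1 to Ncf4 was 1.16 in both.

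The balance between subunits shifted at Cybb. Its level was 0.462 times that of Cyba in vehicle and 0.334 times in clodronate, and relative to Ncf1 it was 0.797 and 0.519 times. Of the summed level of the 4 members, 1002 RPKM in vehicle and 915 RPKM in clodronate, Cybb took 18.2% and 13.2%, while Cyba took 39.4% and 39.5%. RPKM is scaled to transcript length, so these are ratios of transcript levels, and protein was not measured. They are not corrected for the base composition of the transcripts, which differs between the members and moved with the ratios between libraries. With the correction given below, the log2 ratio was -0.50 for Cybb, -0.15 for Cyba, -0.023 for Ncf1 and 0.023 for Ncf4, a smaller gap at Cybb.

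The precision that depth gives was estimated from the steps between low values. Among loci with 1 RefSeq transcript, a level multiplied by length fell near whole multiples of 0.0736 RPKM kilobases in vehicle and of 0.0903 in clodronate, with 76.4% of 450 and 77.2% of 747 low loci within 0.1 of a whole multiple and 3.11% and 4.55% within 0.1 of the midpoint between them. If such a step is 1 read, the RPKM were scaled to 13600000 and 11100000 reads. Cybb would then rest on about 11320 reads in vehicle and 6116 in clodronate, Cyba on 3022 and 2257, Ncf1 on 7890 and 6546, and Ncf4 on 3428 and 2853.

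From these estimated reads, the exact binomial (Clopper-Pearson) 95% interval of the clodronate level over the vehicle level was 0.642 to 0.684 for Cybb and 0.867 to 0.968 for Cyba. It was 0.985 to 1.05 for Ncf1 and 0.971 to 1.07 for Ncf4, both including 1. The intervals cover counting error only, take the scaling of the libraries as exact and hold nothing of how single animals, sorts or preparations differ. The differences in Cybb and in Cyba, the smaller one, were thus larger than counting error between these 2 libraries. None was detectable at this depth for Ncf1 and Ncf4.

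The members were set against all genes. A gene was counted as called when the levels differed at least 3-fold among the 10982 genes averaging 1 RPKM or more over both libraries, which 2.86% of the genes did as higher and 2.32% as lower in clodronate. None of the 4 members passed in either direction, and none passed a 2-fold limit, which 6.95% of the genes passed as higher and 6.77% as lower. At these shares a list of 4 genes would be likely to hold none, so the counts set the members apart in neither direction. The median log2 ratio of the members was -0.050, beside 0.019 for all genes kept. Of all genes kept, 16.1% had a log2 ratio at or below that of Cybb and 40.1% at or below that of Cyba. In a comparison chosen after the levels were seen, 102 of the 823 genes averaging 100 RPKM or more, 12.4%, lay at or below Cybb.

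**Figure D2:**
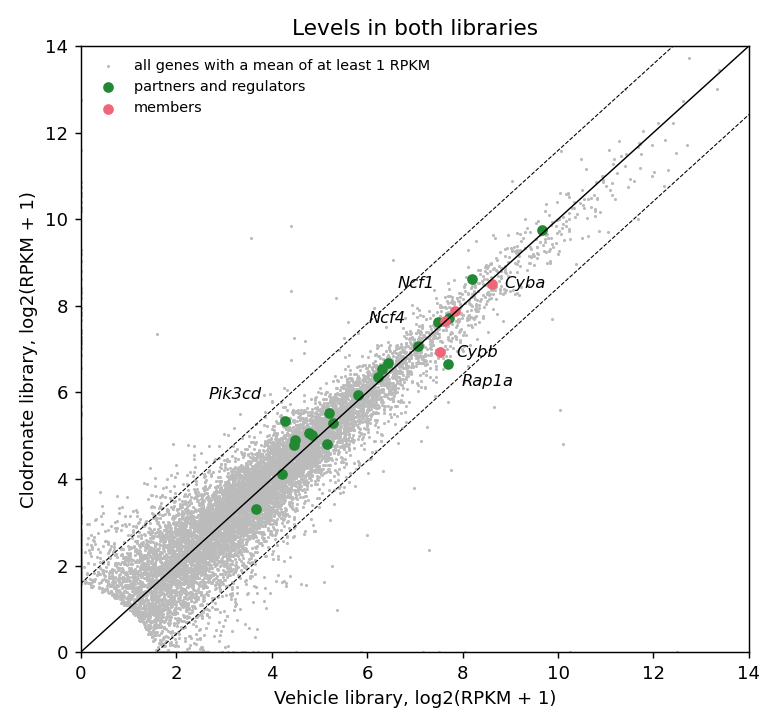
Level of each gene in the vehicle library (x axis) against the clodronate library (y axis), both as log2(RPKM + 1), for genes averaging 1 RPKM or more (grey), partners and regulators (green) and members (red); the solid line marks equal levels and the dashed lines a 3-fold difference. All 4 members lie between the dashed lines, with Cybb below the line of equal levels and Ncf1 and Ncf4 on it.

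Base composition moved with the ratios. Over 10 bins of genes ordered by the GC content of their transcripts, the median log2 ratio ran from -0.24 in the lowest bin to 0.29 in the highest. Cybb, with 42.4% GC, was in the second bin, whose median was -0.16, and Cyba, with 59.3% GC, was in the highest. After the bin medians for GC content and then for transcript length were subtracted, the log2 ratio was -0.50 for Cybb, -0.15 for Cyba, -0.023 for Ncf1 and 0.023 for Ncf4. The difference in Cybb was therefore smaller after this correction but not gone, and the sign of Ncf1 turned.

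Macrophage markers also moved slightly. Of the 15 markers 12 were higher and 3 lower in clodronate, beside 5664 and 5318 among all genes kept. The median log2 ratio of the markers was 0.18, beside 0.019 for all genes kept, with a range from -0.96 for C1qc to 1.23 for Cd163. When ratios were taken relative to the median ratio of the markers, the members stood at -0.77 for Cybb, -0.31 for Cyba, -0.16 for Ncf1 and -0.15 for Ncf4. The median level of the markers, by contrast, was 357 RPKM in vehicle and 289 RPKM in clodronate, but these are the levels of different genes, Adgre1 and Mrc1, and Mrc1 itself was higher in clodronate, with 174 and 289 RPKM. A reference built on it, chosen after the data were seen, gives -0.28 for Cybb, 0.18 for Cyba, 0.33 for Ncf1 and 0.34 for Ncf4 and thus mixes a pair of genes. Adgre1, the gene of the macrophage antigen F4/80, listed under its older symbol Emr1, had 357 RPKM in vehicle and 261 RPKM in clodronate, a log2 ratio of -0.45. Csf1r, the receptor for macrophage colony-stimulating factor, had 446 and 465 RPKM. The part of cell composition in the Cybb difference was not tested.

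**Figure D3:**
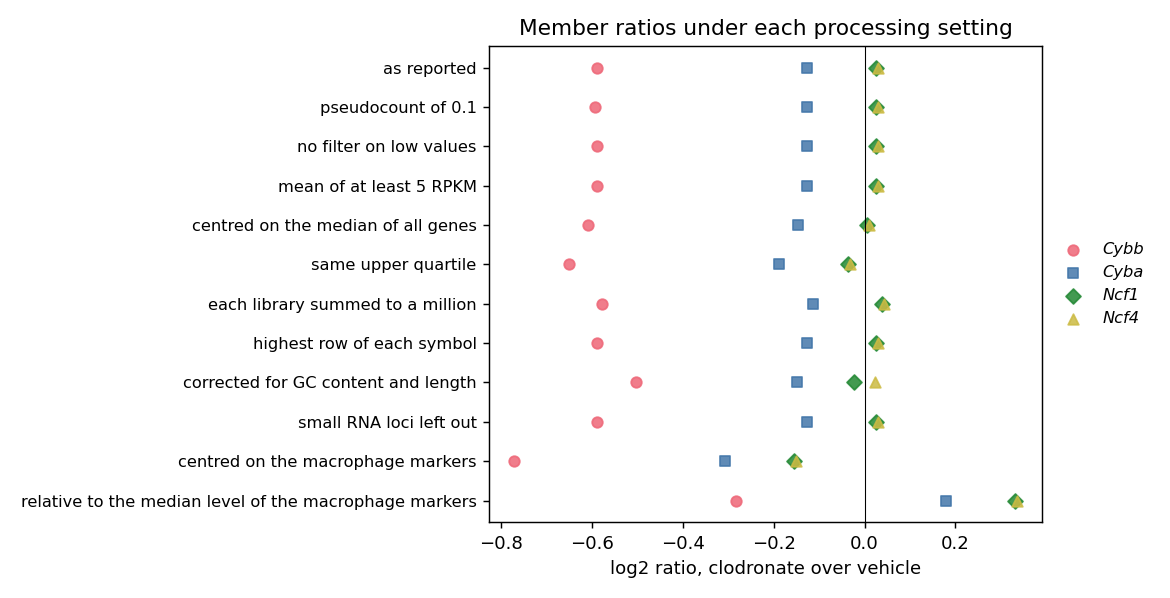
log2 ratio of clodronate over vehicle (x axis) for Cybb, Cyba, Ncf1 and Ncf4 (symbols) under the reported setting and each alternative (y axis). Cybb is the lowest member in every row, between -0.77 and -0.28, and Ncf1 and Ncf4 lie between -0.16 and 0.34; the reference of the bottom row is a different gene in each library.

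Partners of the active complex were present as well. The Rac GTPases were present as Rac1, with 210 RPKM in both libraries, and Rac2, the form of blood cells, with 86.1 and 102 RPKM. Cybc1, a chaperone needed for gp91phox protein and listed as BC017643, had 27.9 and 31.3 RPKM, though its locus overlaps those of Hexdc and Ogfod3. Nrros, which limits the amount of gp91phox, had 74.3 and 80.6 RPKM. The partners named here were level or higher in clodronate, but 5 of the 20 listed partners and regulators were lower, Rap1a by more than Cybb.

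Of the 20 partners and regulators on the list, all passed the filter on low values, 15 were higher and 5 lower, and none reached 3-fold. Among all genes kept, 5664 were higher and 5318 lower. The median log2 ratio of the list was 0.13, beside 0.019 for all genes kept. With 1 of 20 past 2-fold in each direction, the list was near the shares over all genes of 6.95% and 6.77%. At 2-fold 1 was lower, Rap1a, a small GTPase found with the flavocytochrome, with 205 RPKM in vehicle and 99.5 RPKM in clodronate and a log2 ratio of -1.04. With 38.8% GC its corrected log2 ratio was -0.79. At 2-fold 1 was higher, Pik3cd, a phosphoinositide kinase subunit of leukocytes, with 18.3 and 39.7 RPKM and a log2 ratio of 1.07, or 0.80 corrected. Hvcn1, the proton channel that balances the charge carried by the oxidase, had 34.8 and 27.0 RPKM and overlaps the locus of Tctn1.

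The related oxidases were at or near 0. Of the 9 genes listed for the NOX and DUOX family outside Cybb, 7 were listed at 0 in both libraries, among them the catalytic subunits Nox1, Nox3, Nox4 and Duox2 and the Nox1 activator Noxa1. Duox1 was listed at 0 in vehicle and at 0.0527 RPKM in clodronate, about 3 reads. The exception was Noxo1, the organiser that takes the place of Ncf1 in the Nox1 complex, with 4.71 RPKM in vehicle and 0.0874 RPKM in clodronate, a log2 ratio of -2.39. On the estimated reads this was about 132 against 2, a ratio of 0.0186 with a counting interval from 0.00223 to 0.0685. Noxo1 passed the filter on low values only through the vehicle library, in which it was higher. It was past the 3-fold limit, as were 2.32% of all genes kept in that direction. Its level was far below that of Ncf1, and its catalytic partner Nox1 was listed at 0.

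Of 11 transcription factors known to act on promoters of these subunits, 7 were higher and 4 lower in clodronate. The 2 that did not pass the filter on low values were both lower, Hoxa9 with 0.842 RPKM in vehicle, about 35 reads, and Hoxa10 with 0.148 RPKM, about 4 reads, both listed at 0 in clodronate. The 9 that passed were 7 higher and 2 lower, beside 5664 higher and 5318 lower among all genes kept, with a median log2 ratio of 0.39, or 0.23 once corrected for base composition and length. Spi1, which encodes PU.1, had 208 RPKM in vehicle and 333 RPKM in clodronate, a log2 ratio of 0.68, or 0.46 corrected. Irf8, a partner of PU.1, had 36.3 and 39.0 RPKM and Irf1 had 55.9 and 64.1 RPKM. At 3-fold 1 was higher, beside 2.86% of all genes kept. This was Cebpe, a factor of late granulocyte development, listed at 0 in vehicle and at 2.41 RPKM in clodronate, about 28 reads. Cebpe thus passed the filter only through the library in which it was higher. The level of Cybb was lower in the library in which Spi1 was higher, and a link between these genes was not tested.

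**Figure D4:**
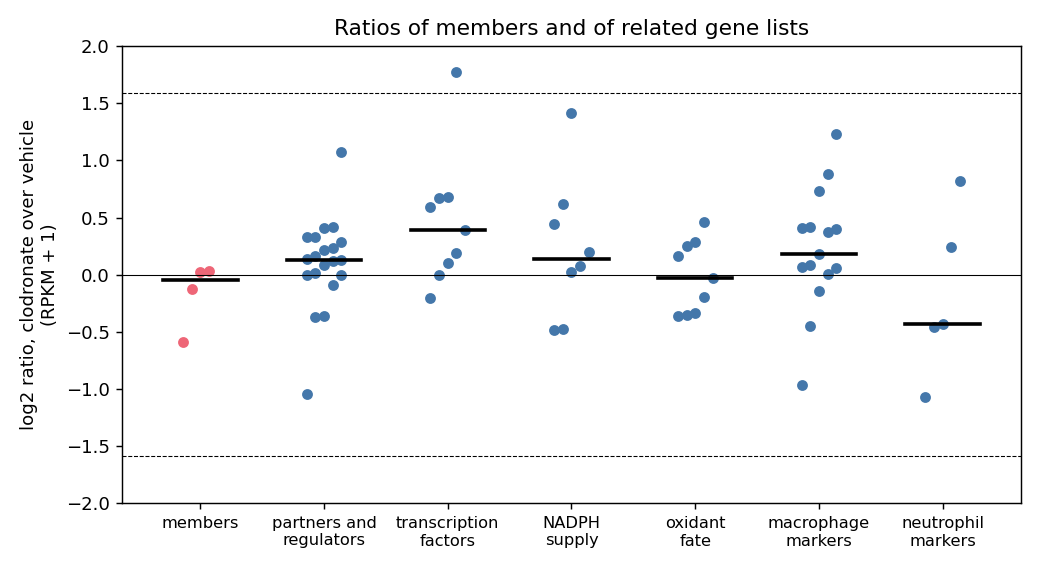
log2 ratio of clodronate over vehicle (y axis) for each gene averaging 1 RPKM or more in the members (red) and in 6 lists (blue), namely partners and regulators, transcription factors, NADPH supply, oxidant fate, macrophage markers and neutrophil markers, with the median of each list as a black bar and the 3-fold limits as dashed lines. The members have a median of -0.050 with Cybb lowest, and Cebpe is the 1 point of these lists beyond a dashed line; the NOX and DUOX family, with Noxo1 at -2.39, is not drawn.

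The genes that supply NADPH, the electron donor of the oxidase, all passed the filter. In clodronate 6 of the 8 were higher and 2 lower, beside 5664 and 5318 among all genes kept. The median log2 ratio of the 8 was 0.14, beside 0.019 for all genes kept. G6pdx, the first enzyme of the pentose phosphate pathway, had 45.6 RPKM in vehicle and 70.6 RPKM in clodronate, a log2 ratio of 0.62, and its locus overlaps that of Ikbkg. Idh2, the mitochondrial NADP-dependent isocitrate dehydrogenase, had 13.3 and 37.0 RPKM, a log2 ratio of 1.41. It was the only gene of the 8 past 2-fold, a limit that 6.95% of all genes kept passed as higher. Taldo1, an enzyme of the later, reversible steps of that pathway, had 120 and 85.6 RPKM.

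Of 12 genes that handle superoxide and its products 9 passed the filter, 4 higher and 5 lower. None was past 2-fold, which 6.95% of all genes kept passed as higher and 6.77% as lower. The median log2 ratio of the 9 was -0.029. Sod1, which converts superoxide to hydrogen peroxide in the cytosol, had 305 RPKM in vehicle and 241 RPKM in clodronate, a log2 ratio of -0.34. Gpx1, a glutathione peroxidase, had 1204 and 1467 RPKM. Mpo and Epx, the granule peroxidases of neutrophils and eosinophils that use the hydrogen peroxide, were listed at 0 in both libraries.

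The genes most like each member were taken as the nearest 3 by distance in log2(RPKM + 1) over the 2 libraries, which describes likeness of level and ratio only. For Cybb these were Itgb1, with 175 RPKM in vehicle and 120 RPKM in clodronate, Cox6c and Cox7c, at distances from 0.055 to 0.091. For Cyba they were Timp2, Dazap2 and Myadm, at 0.033 to 0.055. For Ncf1 they were Ndufv3, Srrm2 and Cdkn1a, at 0.025 to 0.066, and for Ncf4 Coro1c, Atp5h and H3f3b, at 0.050 to 0.077. Each pattern rests on 2 values per gene.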

How the data were processed

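Expression was profiled by RNA sequencing in 1 vehicle and 1 clodronate library. The authors deposited RPKM values for 23170 loci per library. The submitters' processing notes name CASAVA 1.8.2, TopHat2 2.0.9, Bowtie 0.12.9, Cufflinks 2.2.1, Cuffdiff and the build mm9, and annotation and filters were not given in the sources used here. Locus starts in the files count from 0, and 1 was added. Symbols on several lines were summed to 22886 genes, with the accession in place of 26 symbols that had become numbers. RPKM are not counts, and no test was run. Ratios used a pseudocount of 1 RPKM and genes averaging 1 RPKM or more over both libraries. Reads were estimated from the steps of low values over transcripts longer than 1500 nt, with 180 nt taken off the length. Lengths and GC content came from GENCODE M21 transcripts, found for 98.7% of the genes kept, and promoters from RefSeq for GRCm38.p6. Coordinates of the builds were not combined. Of 138 genes in 14 lists 136 were found, 2 under another symbol. Members and lists were chosen with earlier results of these data known. Any listed gene could be named, except a few that are not reported here, as could the 3 genes nearest to each member. The ratios, the 3-fold calls and the step of 1 read were tested on simulated data, and the other calculations were not (Python 3.11.15, scipy 1.17.1, numpy 2.4.6, pandas 2.3.3).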

Additional observations from a re-analysis of the deposited data

How the results depend on the processing

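No paired analysis was possible because vehicle and clodronate have a single library each, and none could be left out. Values were recomputed under 10 alternatives for the members and 1 more chosen after seeing the data. A value was taken to move when it changed by at least the reach of its counting interval to either side of the middle, in log2. This reach was 0.045 for Cybb and was taken as 0.046 for the median of the members. Of the recomputed values 40 stayed and 15 moved. These counts do not measure robustness, because most of the values that stayed could hardly have moved. Many could not move by construction, because each member has 1 line, a high level and is no small RNA. These were the values with no filter, with a mean of at least 5 RPKM, with the highest line of each symbol and without small RNA loci. A pseudocount of 0.1 changed such high levels little. Centring on the median of all genes, 0.019, shifted all members alike, by less than any reach. Rescaling both libraries to the same total also shifted them nearly alike and by less than any reach. Every value that moved is among those given next. With both libraries at the same upper quartile the log2 ratio was -0.65 for Cybb, -0.036 for Ncf1 and -0.11 for the median of the members, and Ncf4 stood at -0.032. Corrected for GC content and length it was -0.50 for Cybb and -0.023 for Ncf1. Centred on the macrophage markers it was -0.77 for Cybb, -0.31 for Cyba, -0.16 for Ncf1, -0.15 for Ncf4 and -0.23 for the median, and relative to the median level of those markers, the added one, it was -0.28, 0.18, 0.33, 0.34 and 0.26, but that level belongs to a different gene in each library. No alternative brought a member past 2-fold. The genes at least 3-fold higher and lower, 314 and 255, were 532 and 480 with a pseudocount of 0.1, 127 and 101 among genes averaging 5 RPKM or more, 501 and 406 with both libraries rescaled to the same total, and 763 and 744 at 2-fold, settings that change by construction how many genes can pass. The read estimate assumes that the transcripts had the lengths given in GENCODE M21.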

Other observations

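Neutrophil and dendritic cell markers, of other cells that use this oxidase, went in both directions. Of the 5 neutrophil markers with a mean of at least 1 RPKM, 2 were higher and 3 lower in clodronate, with S100a8 at 12.7 RPKM in vehicle and 23.1 RPKM in clodronate, on about 53 and 78 reads, and Csf3r at 26.4 and 19.3 RPKM. Of the 8 dendritic cell markers, 5 had a mean of at least 1 RPKM, 3 higher and 2 lower in clodronate. Past 3-fold were 2, both higher in clodronate, beside 2.86% of all genes kept. Batf3 was listed at 0 in vehicle and at 5.77 RPKM in clodronate, about 40 reads. It thus passed the filter only through the library in which it was higher. Cd209a had 1.25 and 8.68 RPKM, about 22 and 125 reads, while Itgax had 21.2 and 19.6 RPKM. The B cell marker Pax5 was listed at 0 in both, and the 5 B cell markers summed to 2.99 and 1.74 RPKM. The 7 T and NK cell markers found summed to 3.23 and 12.1 RPKM, of which Cd2 gave 2.39 and 11.1 RPKM. Of the 8 fibroblast markers with a mean of at least 1 RPKM, 7 were lower in clodronate, beside 5318 of all 10982 genes kept. Past 2-fold lower were 3, beside 6.77% of all genes kept. The median log2 ratio of the 8 was -0.77, beside 0.019 for all genes kept. Dcn, a matrix proteoglycan, had 77.3 RPKM in vehicle and 28.4 RPKM in clodronate, and Col3a1, a fibrillar collagen, had 62.1 and 34.4 RPKM. Endothelial markers summed to 3.34 and 8.31 RPKM over 8 genes. The part of these cells in the values of the oxidase genes was not tested.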
